A study of Homo sapiens with 4 samples.

Results

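A549, a human lung adenocarcinoma cell line of alveolar epithelial origin, was compared between cells expressing a CHST11 vector and cells expressing an empty vector. Per the labels, both cultures were stably transduced, selected with antibiotics and grown without further treatment, and the line came from ATCC. The sources used here do not name the promoter of the vector or say whether the cells were a pool or a clone. There was 1 array in each group, A549 CHST11 and A549 empty vector, out of 4 arrays in all. The other 2 held NCI-H358, a bronchioloalveolar carcinoma line, with the same pair of vectors. Genes were described where the signal, the deposited probe intensity on a linear scale, was 27 or more on at least 1 of the 2 A549 arrays. This left 11477 of the 19775 genes on the array. At the edge of this rule, MLXIPL with a highest signal of 27.04 was inside and LDLRAD4 with 26.99 was outside. With 1 array a side there is no spread between cultures, so every difference below is a description of these 2 arrays, with no test.

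CHST11 is a Golgi sulfotransferase that transfers sulfate to N-acetylgalactosamine in chondroitin chains, and makes chondroitin 4-sulfate. These chains hang on proteoglycan core proteins such as versican and CD44 at the cell surface and in the matrix, where their sulfation sets what they bind. The pathway runs from linker enzymes through polymerising enzymes to sulfotransferases, which all draw on the same sulfate donor. The labels state the question only as the effect of CHST11 expression on RNA in the 2 lines.

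The culture labels held on both A549 arrays. Genes that are high in A549 through its active NRF2 pathway, such as the aldo-keto reductase AKR1B10, were bright, with signals of at least 2793 for all 9 of those on the array. All 9 were brighter on both A549 arrays than on both NCI-H358 arrays. CDKN2A, a cell cycle inhibitor in the 9p21 region that A549 has lost, had 18.4 and 23.9, below the limit of 27. MTAP of the same region did not follow this, with 113 and 132 at its brightest probe set. Epithelial markers summed to 33504 with empty vector and 34083 with CHST11, and 8 of 10 were measured. Markers of leukocytes (2 of 12 measured, summed signal 211 and 220), fibroblasts (2 of 10, 273 and 268), endothelium (2 of 10, 126 and 127) and erythroid cells (1 of 5, 126 and 110) were dim. PTPRC, COL1A2, CDH5 and ALAS2, which define these types, were all under the limit.

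The log2 signals of the 2 arrays correlated with r = 0.996 over all probe sets, and the median log2 ratio of the measured genes, CHST11 over empty vector, was 0.01 with an SD of 0.18 across genes. In the 5117 genes with several probe sets, these gave log2 ratios with an SD of 0.16 within a gene, which gauges measurement scatter within these arrays and not the spread between cultures. Of 11473 genes read at their brightest probe set, 6265 had a log2 ratio above 0. A signal 2-fold or more above that of the empty vector array was found for 4 (0.0349%), and 10 (0.0872%) lay 2-fold or more below it. The higher genes were BIK, CHST11, C1R and CP. The lower genes were CEACAM5, CEACAM6, SPINK6, COL4A4, CEMIP, GDA, CST1, SYNE2, CA2 and C4BPB. At 1.5-fold, 54 genes were higher (0.471%) and 86 were lower (0.75%). For 10 of the 14 genes past 2-fold only 1 probe set was measured, and for 3 (CEACAM5, COL4A4 and CST1) the CHST11 array was under the floor of 16.1, so that their folds are lower bounds.

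**Figure D1:**
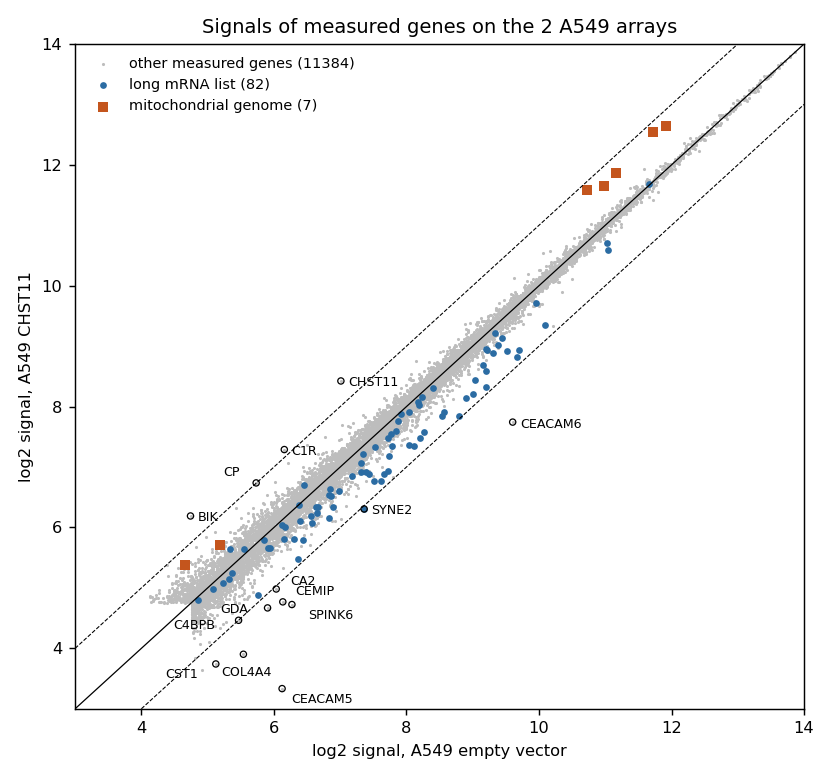
Log2 signal of each measured gene on the A549 empty vector array (x axis) and the A549 CHST11 array (y axis), without the floor. The solid line marks equal signals and the dashed lines 2-fold, the 14 genes past 2-fold are circled and named, the 82 long mRNA genes lie mostly below the solid line and the 7 mitochondrial genes lie above it.

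CHST11 itself was read by 3 probe sets that did not differ alike. Probe set 219634_at gave a signal of 129 with empty vector and 344 with CHST11, 2.66-fold higher. The other 2 gave 169 and 151 (226372_at, log2 ratio -0.16) and 66.4 and 71.7 (226368_at, 0.11), differences no larger than the scatter between probe sets. The same split was seen in NCI-H358, where 219634_at gave 220 and 1058 while 226372_at gave 170 and 187. The sources used here do not say which stretch of the transcript each probe set reads, or whether the vector carries it. The empty vector array of A549 had a signal over 60 at all 3 probe sets.

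The CEACAM genes showed the largest differences. CEACAM5 and CEACAM6 encode carcinoembryonic antigen and a close paralog, GPI-anchored adhesion proteins of epithelial and carcinoma cells. CEACAM6 gave 778 with empty vector and 214 with CHST11 at 211657_at (3.63-fold lower), and 639 and 196 at 203757_s_at (3.26-fold lower). CEACAM5 gave 69.7 and 10.1 at 201884_at, at least 4.32-fold lower, and 30.0 and 20.4 at 217291_at (1.47-fold lower). All 4 probe sets were thus lower with CHST11, but those of CEACAM5 differed in size. The paralogs are similar enough in sequence that probes for the first may take up RNA of the other, and the part of this in the values was not tested. In NCI-H358 both genes were under 27 on both arrays.

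The pair are direct neighbours on chromosome 19, CEACAM5 at chr19:41708626-41730519 and CEACAM6 at chr19:41755530-41772211 (GRCh38.p14, RefSeq, forward strand). The next gene, CEACAM3, gave 52.6 and 40.9 (log2 ratio -0.36, but 0.12 at its other probe set), and CEACAM7 on the other side was under the limit. Because neighbouring paralogs were lower together, the 250 bases before each start are shown for comparison, from RefSeq and GRCh38.p14, at chr19:41708376-41708625 and chr19:41755280-41755529 on the forward strand. Capitals mark matches on either strand to the E-box CACGTG, the TATA box TATAAA and the GC box GGGCGG.
CEACAM5: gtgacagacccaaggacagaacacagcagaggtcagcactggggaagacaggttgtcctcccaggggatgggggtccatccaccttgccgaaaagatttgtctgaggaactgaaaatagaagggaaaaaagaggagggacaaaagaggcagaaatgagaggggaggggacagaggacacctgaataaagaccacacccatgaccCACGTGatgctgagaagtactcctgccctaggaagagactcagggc
CEACAM6: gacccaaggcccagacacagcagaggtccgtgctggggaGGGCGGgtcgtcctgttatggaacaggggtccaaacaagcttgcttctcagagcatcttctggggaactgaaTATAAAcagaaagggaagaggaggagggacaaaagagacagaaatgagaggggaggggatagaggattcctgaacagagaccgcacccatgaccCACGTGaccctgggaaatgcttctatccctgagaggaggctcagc
The 2 stretches were identical at 190 of 242 aligned bases (78.5%), with GC contents of 53.2% and 55.2% against a median of 58% over all promoters. Both held the E-box, at 46 to 41 bases before the start in CEACAM5 and 45 to 40 in CEACAM6, inside an identical run of 18 bases. It occurred in 6.345% of the 35116 promoters of the same length. TATAAA (10.72% of promoters) and GGGCGG (42.64%) were found only in the CEACAM6 stretch, at 139 to 134 and 211 to 206 bases before the start. CCAAT (32.01%) and the forkhead core TGTTTAC (2.979%) were in neither. These are matches of letters and not measured binding sites. Among the 28 genes next to the 14 genes past 2-fold, 19 were measured, and 2 of them were past 1.5-fold, CEACAM5 and CEACAM6 as neighbours of each other.

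**Figure D2:**
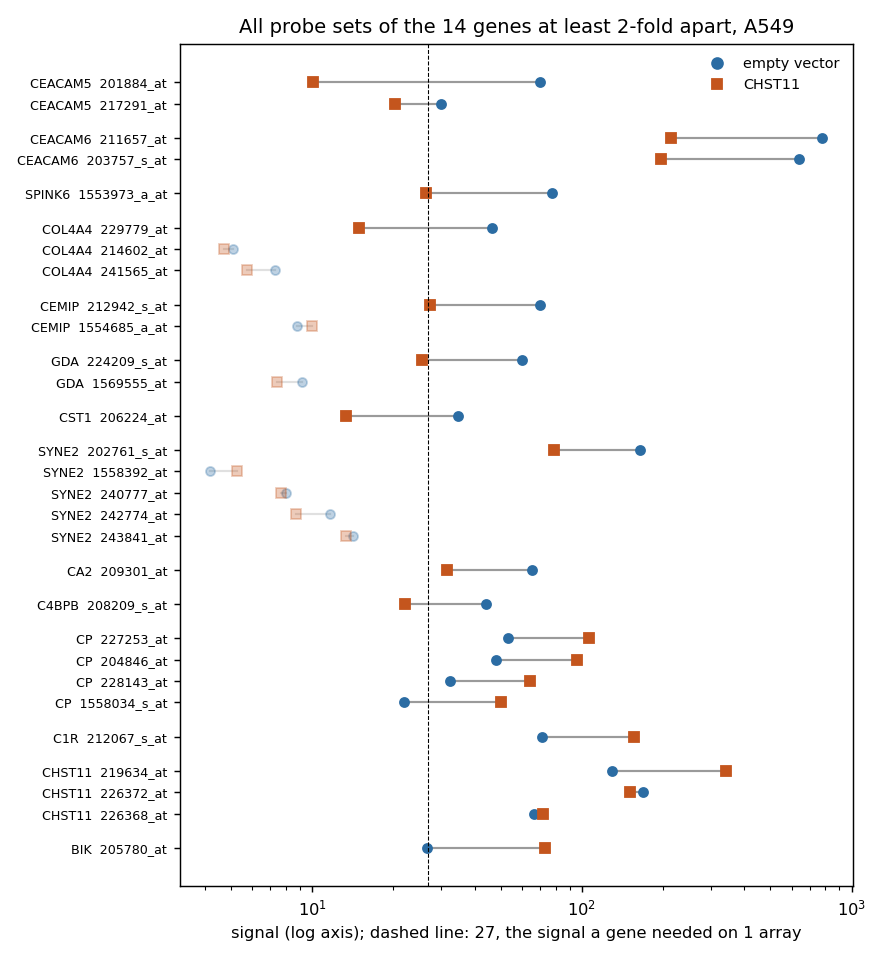
Signals on a log axis of every probe set of the 14 genes past 2-fold, with the empty vector array as circles and the CHST11 array as squares. Faded probe sets were under 27, marked by the dashed line, on both arrays, and of the 3 CHST11 probe sets 1 separates the arrays while all 4 of CP do.

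Among the other lower genes, most had signals below 100 with empty vector. SPINK6, a secreted kallikrein inhibitor, gave 77.3 with empty vector and 26.4 with CHST11, 2.92-fold lower. CST1, a secreted cysteine protease inhibitor of the cystatin family, gave 34.9 and 13.4, at least 2.16-fold lower. CST4, the gene beside it, gave 44.2 and 42.7, so the difference at CST1 did not extend to this close paralog. Over 16 measured secreted protease inhibitors the median log2 ratio was -0.09, with 5 above 0, and the others nearest to these were SLPI (672 and 525, -0.35) and CSTA (51.0 and 41.4, -0.30).

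CEMIP, which drives the breakdown of hyaluronan, gave 70.2 with empty vector and 27.3 with CHST11, 2.58-fold lower. In NCI-H358 it gave 91.9 and 136, on the other side of 0 with a log2 ratio of 0.57. HAS2, a hyaluronan synthase, was dim, with 18.0 and 27.9 (log2 ratio 0.63), while HAS3 gave 224 and 246 (0.14) and the hyaluronidase HYAL2 gave 153 and 192 (0.33). CEMIP2, a relative of CEMIP, gave 714 and 593 (-0.27). Genes of breakdown thus went both ways, with CEMIP lower and HYAL2 higher, while the measured synthases HAS2 and HAS3 lay above 0. The median over the list of 10 measured genes was 0.03.

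GDA, the guanine deaminase of purine breakdown, gave 59.9 with empty vector and 25.4 with CHST11, 2.35-fold lower. CA2, a cytosolic carbonic anhydrase, gave 65.6 and 31.6, 2.07-fold lower. The other carbonic anhydrases went both ways. CA8 was lower (46.1 and 32.1, log2 ratio -0.52), CA11 was higher (59.3 and 93.2, 0.65), and the brightest, CA12, a membrane form, gave 3168 and 3499 (0.14, from -0.13 to 0.31 over 6 probe sets). EPCAM, an epithelial adhesion protein, gave 210 and 123, a log2 ratio of -0.77, and CLDN3, a tight junction protein, gave 50.7 and 32.7 (-0.63). CLDN2, which forms a pore for cations in tight junctions, gave 131 and 207 (0.66). CDH1, the adherens junction cadherin, gave 810 and 833 (0.04), and the median of 25 genes of junctions and keratins was -0.02.

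The higher genes began with BIK, a proapoptotic protein of the BCL2 family with only a BH3 domain, at 26.7 with empty vector and 73.0 with CHST11, 2.73-fold higher. The other 16 measured members of the family ran from BMF (32.6 and 26.1, log2 ratio -0.32) to BAX (223 and 270, 0.28). In NCI-H358, BIK gave 320 and 359 (0.16).

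C1R and C1S are the proteases of the first complement component, of which C1S cleaves C4 and C2. C1R gave 71.4 with empty vector and 156 with CHST11, 2.19-fold higher at its only probe set. C1S gave 241 and 318 (log2 ratio 0.40, and 0.37 at its other probe set), and C1RL, a related protease, gave 144 and 176 (0.29). These 3 genes lie side by side on chromosome 12, C1S at chr12:7060718-7071032, C1R at chr12:7080219-7092445 and C1RL at chr12:7094554-7109214, and all were higher, C1R most. LPCAT3, the next gene beside C1S and not on the complement list, was higher too, at 144 and 180 (0.32). C4BPB, the beta chain of the C4 binding protein that restrains the complement pathway, gave 44.2 and 22.1, just past 2-fold lower. Its neighbour and partner chain C4BPA gave 64.1 and 57.0 (-0.17). C3, the central component, gave 539 and 418 (-0.36), and CFI, the protease that inactivates it, gave 45.1 and 34.1 (-0.40, but 0.03 at its other probe set). The surface regulators CD55 (0.15), CD59 (0.05) and CD46 (-0.03) were near 0, and the median over 15 complement genes was 0.05, with 9 above 0. C1R gave 42.6 on both arrays of NCI-H358.

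CP, or ceruloplasmin, is a copper-carrying ferroxidase of plasma. It was the higher gene with the most probe sets, and all 4 were higher by a like size, with log2 ratios of 0.98 to 1.202. They gave 53.2 and 107 at 227253_at, 47.9 and 96.0 at 204846_at, 32.5 and 64.1 at 228143_at, and 21.8 and 50.2 at 1558034_s_at. In NCI-H358 the 2 brighter ones also lay above 0, with 21.8 and 55.0 at 227253_at and 35.1 and 50.8 at 204846_at. CP takes part in iron handling, of which the exporter, the store and the uptake receptor were near 0 or slightly below. SLC40A1, the iron exporter, gave 96.0 and 97.6 (0.02), FTL, the ferritin light chain, gave 13494 and 13422 (-0.01), and TFRC, the transferrin receptor, gave 3233 and 2828 (-0.19, up to 0.16 over 3 probe sets). The median of 18 iron genes was -0.02, and other plasma proteins of liver type went both ways, with FGB, a fibrinogen chain, at 539 and 393 (-0.46, and -0.08 at its other probe set) and ITIH2 at 49.98 and 63.3 (0.34). FOXA3, an endoderm transcription factor, was higher at 28.3 and 51.0 (0.85), and SOX17, another, was lower at 51.5 and 30.5 (-0.76).

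The chondroitin pathway around CHST11 lay close to the median of all genes. Of 24 measured genes, 18 lay above 0, against 6265 of all 11473 genes. The median log2 ratio of the 24 was 0.08 against 0.01 for all genes. None was past 1.5-fold, which at shares of 0.471% higher and 0.75% lower over all genes says little about so short a list. CSGALNACT1, which starts the chondroitin chain, had the largest difference among the bright genes, at 1147 with empty vector and 1525 with CHST11 (0.41). UST, which sulfates uronic acid, gave 31.0 and 41.9 (0.43), DSE, the epimerase that makes dermatan, gave 201 and 246 (0.29), and CHST7, a 6-O-sulfotransferase, gave 163 and 199 (0.29). CHST12, which transfers sulfate to the same position as CHST11, gave 122 and 127 (0.06), CHST3, a 6-O-sulfotransferase, gave 228 and 221 (-0.04), and CHST15, which adds a further sulfate to chondroitin 4-sulfate, gave 278 and 294 (0.08). PAPSS1 and PAPSS2, which make the sulfate donor, were at 0.04 and -0.11 (up to 0.26 over the 3 probe sets of PAPSS2). The lowest was CHPF, a chain polymerising factor, at 30.2 and 22.3 (-0.44).

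Genes of the other sulfated chain and of the core proteins gave single differences rather than a shift of the list. HS3ST6, a heparan sulfate 3-O-sulfotransferase, gave 20.9 with empty vector and 41.6 with CHST11 (log2 ratio 0.99), and HPSE, which cuts heparan sulfate, gave 46.3 and 36.3 (-0.35). The median of 12 heparan genes was 0.04. Among core proteins, HSPG2, or perlecan, which is also on the list of long mRNAs described below, gave 183 and 109 (-0.75). VCAN, or versican, gave 487 and 390 (-0.32), and CD44 gave 2659 and 2622 (-0.02, from -0.22 to 0.33 over 8 probe sets). CSPG5 was higher at its brighter probe set, 26.7 and 42.97 (0.69), but its other probe set had a log2 ratio of -0.05. The median of 20 core proteins was 0.03, and it was also 0.03 for the 19 without HSPG2.

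**Figure D3:**
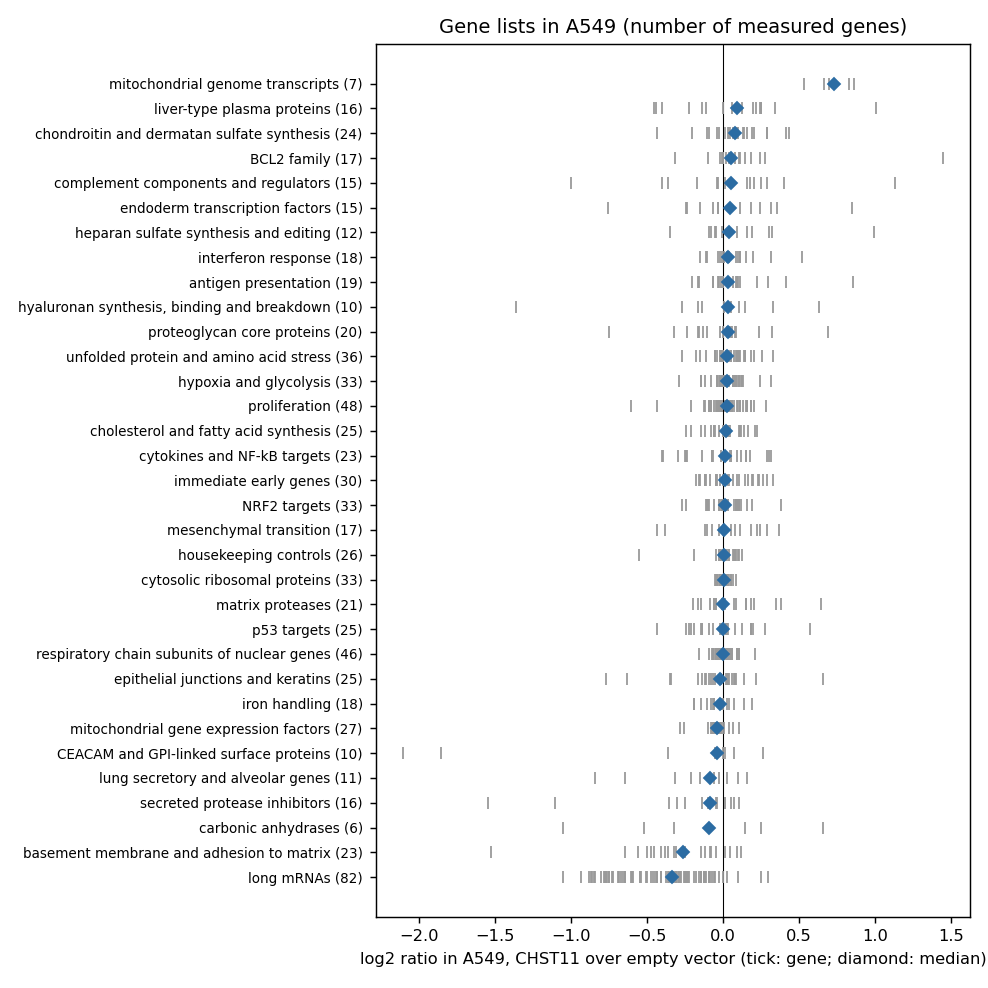
Log2 ratio in A549, CHST11 over empty vector, of the measured genes of each list (ticks) and their median (diamonds), for lists with 6 or more measured genes. The median of the mitochondrial genome transcripts is 0.73, those of the long mRNAs and the basement membrane genes are -0.34 and -0.27, and the others lie between -0.09 and 0.09.

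Basement membrane and matrix adhesion genes lay lower as a group. Of 23 measured genes, 19 were below 0 and the median log2 ratio was -0.27, while 45.4% of all measured genes were below 0. COL4A4 and NPNT, 2 of the 23, were at least 1.5-fold lower, as were 0.75% of all genes. COL4A4, a collagen IV chain, gave 46.5 with empty vector and 14.95 with CHST11, at least 2.88-fold lower at its only measured probe set. NPNT, an integrin ligand, gave 29.5 and 18.9 (-0.64), NID2, a linker of laminin and collagen, gave 51.8 and 35.1 (-0.56), and ITGA2, a collagen receptor chain, gave 173 and 122 (-0.50, but -0.03 at its other probe set). Bright genes took part too. Fibronectin, FN1, gave 1444 and 1105 (-0.39), COL4A1 gave 493 and 371 (-0.41, but 0.02 at its other probe set), and the laminin chains LAMC1 (928 and 741) and LAMB1 (974 and 810) had ratios of -0.32 (-0.15 at its other probe set) and -0.27. COL4A2, whose product pairs with that of COL4A1, gave 867 and 940 (0.12, and 0.38 at its other probe set). Over the 38 measured probe sets of the list, 28 were below 0 and 10 above. Without LAMA5, which is also on the list of long mRNAs, the median of the remaining 22 was -0.26. Most of these proteins are large, and how far their ratios follow mRNA length was not tested. In NCI-H358 the median of the 17 measured genes was 0.19.

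Of the lists, long mRNAs had the lowest median. The list was made by hand of 114 genes known for very long transcripts, of which 82 were measured. Of these, 78 (95.1%) were below 0 and the median log2 ratio was -0.34. Past 1.5-fold, 25 were lower (30.5%, against 0.75% of all genes) and none was higher. Over all 185 measured probe sets of these genes, 164 were below 0. The shift was not limited to dim genes, since the 50 with a signal of 100 or more on both arrays had a median of -0.44, with 49 below 0, while all 7522 genes that bright had a median of 0.01.

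The members with the lowest ratios came from unrelated functions. SYNE2, a nuclear envelope protein of the nesprin family, gave 164 with empty vector and 79.1 with CHST11 (log2 ratio -1.05), and SYNE1, its relative, gave 53.9 and 29.6 (-0.86). FBN1 and FBN2, fibrillins of matrix microfibrils, gave 82.1 and 44.5 (-0.88) and 585 and 320 (-0.87). DYNC1H1, the heavy chain of cytoplasmic dynein, gave 816 and 452 (-0.85). BIRC6, a giant ubiquitin enzyme, gave 515 and 295 (-0.80), and PRKDC, the kinase of DNA end joining, gave 1090 and 655 (-0.73, and -0.70 at its second probe set). MKI67, the proliferation antigen, gave 589 and 387 (-0.61) and its 4 probe sets ran from -0.62 to -0.45. The other proliferation genes did not share this, since 45 of them outside the long list had a median of 0.03.

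Within the long list, probe sets of the same gene could differ. AHNAK, a giant scaffold protein, gave 442 and 231 at 211986_at (log2 ratio -0.94) but 128 and 147 at 220016_at (0.20). HUWE1, a ubiquitin ligase, was at 0.02 at its brightest probe set and -0.57 at the other. TPR, of the nuclear pore basket, ran from -0.47 to 0.60 over 4 probe sets. The exceptions above 0 were HUWE1, NOTCH3 (46.6 and 49.8, 0.09), COL7A1 (87.7 and 104, 0.25) and PKD1 (40.6 and 49.8, 0.29).

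The same list lay on the other side of 0 in NCI-H358. Of 86 genes measured there, 64 were above 0, with a median of 0.13. Of the 79 measured in both lines, 57 (72.2%) were lower in A549 and higher in NCI-H358, against 24.0% of 10604 genes. No array is shared between the 2 lines, but each had 1 array a side, so the difference between them was not tested.

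**Figure D4:**
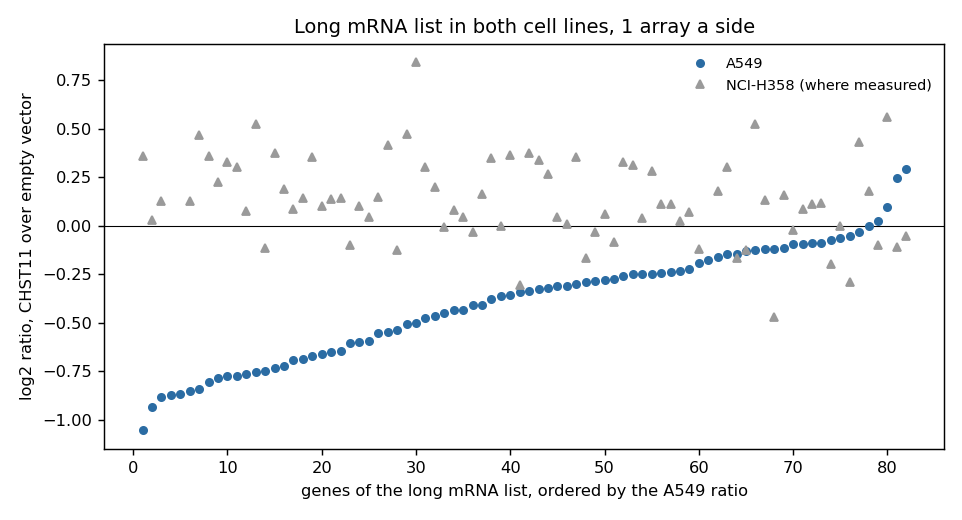
Log2 ratio, CHST11 over empty vector, of the 82 long mRNA genes measured in A549 (circles, ordered by that ratio) and of those also measured in NCI-H358 (triangles). In A549, 78 of 82 lie below 0, from -1.05 to 0.29, and most triangles lie above 0.

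Control probe sets at the 5' and 3' ends of the same transcript differed between the arrays as well. For GAPDH, the 3' to 5' ratio was 2.64 with empty vector and 2.14 with CHST11 in A549, and 2.14 and 2.19 in NCI-H358. For ACTB it was 2.40 and 2.14 in A549 and 2.06 and 2.32 in NCI-H358. In A549 both ratios were lower on the CHST11 array, which also had the lower signals of long mRNAs. The part of RNA integrity or labelling in the long mRNA shift was not tested, and with 1 array a side it cannot be told apart from an effect of the vector.

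Median ratios also ran with gene size on the genome. Median log2 ratios by genomic span (RefSeq, introns included) were 0.04 for 1188 genes under 5 kb, 0.03 from 5 to 20 kb, 0.02 from 20 to 50 kb, -0.0044 from 50 to 100 kb, -0.02 from 100 to 200 kb and -0.03 for 750 genes over 200 kb. In NCI-H358 they ran the other way, from -0.05 under 5 kb to 0.07 over 200 kb. In A549, 3.20% of genes over 200 kb were at least 1.5-fold lower, against 0.28% from 5 to 20 kb and 0.84% under 5 kb, so this share was not graded at the short end. These class shifts are far smaller than that of the long mRNA list. A running median over genomic span ranged from -0.06 to 0.05, and with it subtracted the long list was at -0.33. Lengths of the mRNAs were not used here.

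Transcripts of the mitochondrial genome were higher at every measured probe set. They encode subunits of the respiratory chain and of ATP synthase and are made inside the mitochondrion from long joint precursors. COX1 gave 3384 with empty vector and 5998 with CHST11 (log2 ratio 0.83), ND2 gave 1698 and 3079 (0.86), and ATP6 gave 2029 and 3207 (0.66). COX2 gave 3856 and 6398 (0.73) and 3669 and 5924 (0.69) at its 2 probe sets. ND4 gave 2287 and 3711 (0.70) and 1493 and 2571 (0.78). The dim ones, ND6 (25.2 and 41.8, 0.73) and COX3 (36.2 and 52.4, 0.53), shared the direction. The 7 genes, of 15 listed, had a median of 0.73, and 6 of them were among the 54 genes at least 1.5-fold higher. In NCI-H358 the 7 bright probe sets were lower with CHST11, with log2 ratios of -0.30 to -0.07, and the median of the 7 genes there was -0.14. Copies of these sequences lie in the nuclear genome, and probe sets cannot separate their RNA.

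Nuclear genes that work with the mitochondrial genome did not follow. The 46 nuclear subunits of the respiratory chain had a median of -0.0036 and ran from -0.16 to 0.21, below the lowest mitochondrial gene at 0.53. Of 27 factors that copy, transcribe or process the mitochondrial genome, 4 were above 0, against 6265 of all 11473 genes. The median of these factors was -0.04, so they leaned slightly lower. POLRMT, the mitochondrial RNA polymerase, gave 285 and 292 (0.04), TFAM, its DNA-packaging partner, gave 854 and 831 (-0.04, up to 0.23 over 4 probe sets), and LRPPRC, which stabilises mitochondrial mRNAs, gave 1616 and 1509 (-0.10, down to -0.48 over 4 probe sets). The lowest were the coactivators PPARGC1B (-0.29) and PPARGC1A (-0.26). Cytosolic ribosomal proteins, whose mRNAs are short, had a median of 0.003 over 33 genes and a range of -0.05 to 0.08.

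**Figure D5:**
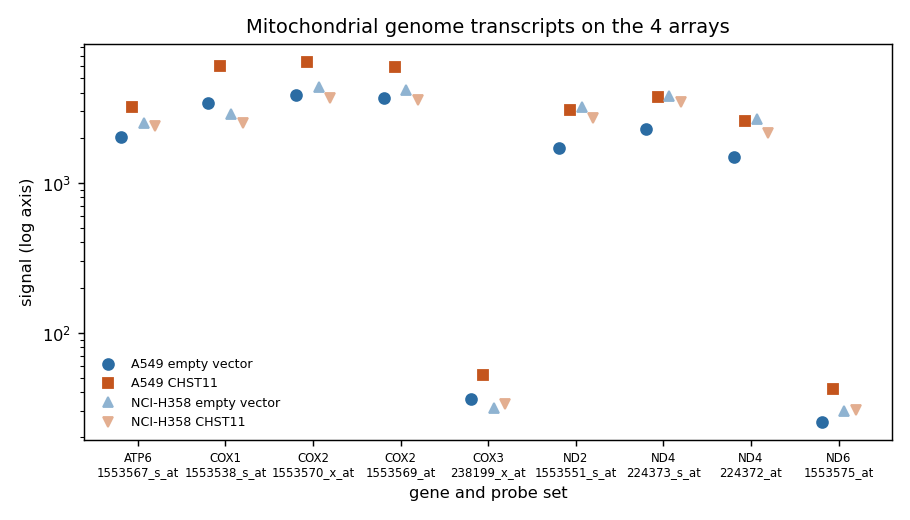
Signals on a log axis of the 9 measured probe sets of mitochondrial genome transcripts on all 4 arrays. The A549 CHST11 array lies above the A549 empty vector array at all 9, from 41.8 against 25.2 for ND6 to 6398 against 3856 for COX2.

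Set apart from both lists, 48 genes were at least 1.5-fold higher and 61 at least 1.5-fold lower. Of the 61, 26 (42.6%) span more than 100 kb of the genome, against 6 of the 48 (12.5%) and 17.7% of all measured genes, so long genes outside the hand list are still among them. MAP1B, a microtubule protein, is such a gene, with 1188 and 645 at its brightest probe set and log2 ratios of -0.88 to -0.56 over 3 probe sets. SVEP1, a large matrix adhesion protein, gave 223 and 114 (-0.97), though its other measured probe set was at 0.18. Of the 54 higher genes 29 had signals under 50 on both arrays, and of the 86 lower genes 27 did.

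Probe sets of the same gene could be set against each other for few genes. Of the genes past 1.5-fold with 2 or more measured probe sets, all had the same sign in 24 of 28 lower genes and in 5 of 8 higher genes. Over all genes with several measured probe sets, 2558 of 5117 had the same sign throughout, and the 2 counts were not tested against each other. Higher genes with such agreement, besides CP, ND4 and COX2, were PXK, a kinase-like sorting protein (0.58 to 0.67), and CDH11, a mesenchymal cadherin (0.50 to 0.60). Below 1.5-fold at the brighter probe set, MMD gave 1065 and 1491 (0.49), PDGFD, a growth factor, gave 265 and 354 (0.42), and MAOA, a monoamine oxidase, gave 65.9 and 87.4 (0.41). Among the 15 lowest genes by agreeing probe sets, those outside the long list were CEACAM6, CEACAM5, MAP1B, TLN2, a talin (-0.65 and -0.54), TOX3 (-0.57 to -0.53), USP24, a deubiquitinase (-0.55 and -0.47), CEP350 (-0.42 at both), and PRSS2 (-0.81 and -0.59), a trypsinogen whose paralogs may share its probes. The long list was made by hand and mRNA lengths were not used. Being outside the list thus does not set a gene apart from the long mRNA shift.

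Among immune genes, HLA-DMB, which helps load peptides onto class II molecules, gave 74.1 with empty vector and 134 with CHST11 (log2 ratio 0.85), and its partner chain HLA-DMA gave 43.6 and 53.4 (0.29). The class I genes HLA-B and HLA-C were at -0.02 and 0.10, though probe sets of HLA-B reached 0.34, and 19 antigen presentation genes had a median of 0.03. The medians were 0.03 for 18 interferon genes and 0.01 for 23 NF-kB genes. PTPRO, a receptor phosphatase, gave 90.9 and 164 (0.85), and SLC25A45, a carrier of the mitochondrial family, gave 42.95 and 79.6 (0.89). TFF1, a trefoil peptide of mucous cells, gave 36.4 and 20.3 (-0.84), and MUC5B, a mucin on the long list, gave 86.9 and 55.4 (-0.65).

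Lists of stress and growth were near 0. The median was 0.01 for 33 NRF2 targets, -0.0025 for 25 p53 targets, 0.02 for 33 genes of hypoxia and glycolysis, 0.03 for 36 genes of protein folding and amino acid stress, 0.02 for 25 genes of lipid synthesis and 0.01 for 30 immediate early genes, against 0.01 for all measured genes. For mesenchymal transition the median of 17 genes was 0.01, with VIM, or vimentin, at 5517 and 5545 (0.01). The largest differences in this list were TAGLN (-0.44, but up to 0.004 over 3 probe sets), FN1 (-0.39) and TGFB1 (0.36).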

How the data were processed

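The deposited values are an intensity per probe set on a linear scale, made by the authors with MAS5 per the submitters' processing notes. Its version, target and calls of presence are not given in the sources used. A further normalization of the values is possible, and could shrink the folds of dim genes. The 4 arrays had median signals of 15.9 to 16.3. Of 54675 probe sets, 41091 named 1 gene in the platform annotation, which can be old, 1801 several, 11721 none and 62 were controls. Only single-gene probe sets were used, and 99.9% matched a current RefSeq record. Signals were floored at 16.1, the 50th percentile, and log2 was taken. A gene was read at its brightest probe set, by mean log2 signal on the A549 arrays, and 4 genes passed only at another probe set. The 27 of the filter is about the 60th percentile. There was 1 array a group, hence no test, and their number limits the precision.

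The genes and 38 lists were chosen with earlier results of these data known. Text names were CHST11; genes past 2-fold; the 15 highest and 15 lowest with agreeing probe sets; the 10 highest and 10 lowest after the span correction; mitochondrial transcripts; up to 4 highest and 4 lowest of each list; and a few iron, adhesion and matrix genes. Of these, those with a described role are printed. Exceptions chosen after their values were seen include neighbouring genes, partner chains of named proteins, other members of the carbonic anhydrase, chondroitin and hyaluronan lists, the class I HLA genes and POLRMT, TFAM, AHNAK, TPR, BIRC6, SYNE1 and ZBTB20. Protein length classes were planned, but no protein table was used here; genomic span from RefSeq (GRCh38.p14), with a running median over 301 genes, was added after seeing the data. Scripts were tested on simulated data. Python 3.11.15, NumPy 2.4.6, pandas 2.3.3 and matplotlib 3.10.9 were used, with limma 3.58.1 in R 4.3.3 for cyclic loess normalization.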

Additional observations from a re-analysis of the deposited data

Results flagged for a closer look

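Among lists with 6 or more measured genes, the 3 with the median farthest from 0 in A549 lay on the other side of 0 in NCI-H358, and with 1 array a side the difference between lines was not tested. Lists nearer to 0 did so too, such as antigen presentation (0.03 and -0.14) and lung secretory genes (-0.09 and 0.16). The median log2 ratio of the long mRNAs was -0.34 in A549 and 0.13 in NCI-H358. That of the mitochondrial genome transcripts was 0.73 and -0.14. That of the basement membrane and adhesion genes was -0.27 and 0.19.

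Of 10604 genes measured in both lines, 3 were past 1.5-fold in both and in opposite directions. Genes past 1.5-fold in both lines in the same direction, such as CHST11 (log2 ratios of 1.41 and 2.26 at 219634_at), were not counted here. In A549, 0.471% of all measured genes were at least 1.5-fold higher and 0.75% lower. The shares in NCI-H358 were not counted, so the 3 genes are listed only as a description. ADGRL3, an adhesion receptor, was at -0.61 (log2) in A549 (27.7 and 18.1) and at 0.75 in NCI-H358 (38.1 and 64.3). NPNT was at -0.64 in A549 and 0.71 in NCI-H358, where it gave 136 and 223. ZBTB20, a zinc finger repressor, was at -0.87 in A549 (129 and 70.7) and 0.78 in NCI-H358 (56.6 and 97.4). The A549 ratio of ZBTB20 is from the brightest of 5 measured probe sets. ZBTB20 was not among the lowest genes by agreeing probe sets named above, which ended with CEP350 at -0.42. Its A549 probe sets were thus not all as low as -0.42. The reversal is given at the brightest probe set in each line, and whether the other probe sets share it is not described here.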

How the results depend on the processing

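The arrays were also normalized by quantiles, by cyclic loess and by their medians, and the other alternatives were a lower floor or none, a stricter filter or none, other choices of the probe set for a gene, and a correction for genomic span. With the filter at the 75th percentile, a signal of 86.7, 2 genes were at least 2-fold lower, and at 1.5-fold 15 were higher and 43 lower; fewer genes are tested there. With only probe sets ending in _at, 5 genes were at least 2-fold lower. All 3 normalizations took CP just below 2-fold (0.96 at the lowest), and median centring added SVEP1. CEACAM5 was at -0.56 when the brightest probe set over all 4 arrays was taken, and CHST11 at 0.11 as the median of its probe sets. CSPG5 reversed to -0.0487 at the brightest probe set over all 4 arrays. The median of the long mRNAs ranged from -0.42 to -0.27 and that of the mitochondrial transcripts from 0.68 to 0.73, and the basement membrane median ranged from -0.31 to -0.20. The running median over protein length, the omission of genes by protein length and the other length classes were not run, as no protein table was used here. No paired analysis was possible because each group had 1 array. Genes with signals near 27 are close to the floor, which limits their folds.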
